A study of Mus musculus with 20 samples.

Results

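Hippocampal RNA from 20 libraries of male C57BL/6J mice was compared between 2 sets of replicate numbers. The 8 libraries numbered 1 or 2 were set against the 12 libraries numbered 3, 4 or 5. The mice were KO or WT for Fkbp5, were 12 weeks old, and had received 1 intraperitoneal injection of LPS at 3 mg/kg or of saline. Tissue was taken at day 7. This gave 4 groups of 5 libraries, KO LPS, KO saline, WT LPS and WT saline, and each group put 2 libraries into replicates 1-2 and 3 into replicates 3-5. Fkbp5 encodes FKBP51, a co-chaperone of the glucocorticoid receptor, and LPS is the bacterial cell-wall lipid that provokes systemic inflammation. The labels give neither the knockout allele nor what the replicate numbers stand for, and they do not say whether the libraries came from separate animals. P-values therefore measure the spread between these libraries, which may be technical.

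The 2 sets were chosen by measured values: these same gene counts, over all genes, had already set the libraries apart. Every difference between replicates 1-2 and replicates 3-5 below is accordingly a description, given with the standard error of the fit and without a p-value. Tests were kept for contrasts that the choice did not use: how the set difference varied among groups, differences between numbers within a set, and the effects of LPS and genotype. The labels' knockout was checked first. Fkbp5 (chr17:28399094-28517527 on mm10) had 35.1 and 28.6 CPM in the KO LPS libraries of replicates 1-2, 35.01 and 26.8 CPM in their KO saline libraries, 73.4 and 60.3 CPM in their WT LPS libraries, and 58.4 and 71.9 CPM in their WT saline libraries. In replicates 3-5 it had 25.1 to 35.99 CPM in KO and 56.7 to 68.5 CPM in WT libraries. KO and WT libraries did not overlap in either set, and transcript remained in all KO libraries. CPM are counts scaled to each library's TMM-adjusted total, as edgeR's cpm function gives them.

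A bulk RNA library mixes spliced messenger RNA of the cytoplasm with transcripts that stay in the nucleus and with RNA made inside mitochondria. Long non-coding RNAs such as Neat1 and Malat1 are found in nuclear bodies. Messages for ribosomal proteins and respiratory-chain subunits are short, abundant and cytoplasmic. The mitochondrial genome is copied from both strands as long precursors that are cut at the tRNAs lying between the coding genes. In bulk tissue, fewer cells of a type and less RNA per cell cannot be told apart.

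The sequences below belong to genes of short RNAs with wide set differences, which are described further on. The first 3 tRNAs lie side by side on the plus strand of the mitochondrial genome (GRCm38, the same assembly as mm10) and were higher in replicates 1-2. They are the histidine tRNA at chrM:11546-11612, a serine tRNA at chrM:11613-11671 and a leucine tRNA at chrM:11671-11741, and capitals mark the anticodon.
mt-Th: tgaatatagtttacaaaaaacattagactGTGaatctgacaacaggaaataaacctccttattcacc
mt-Ts2: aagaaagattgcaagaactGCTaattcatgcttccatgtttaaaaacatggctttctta
mt-Tl2: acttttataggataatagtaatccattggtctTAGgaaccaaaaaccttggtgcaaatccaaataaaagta
The next 3 are on the minus strand and were lower in replicates 1-2. They carry asparagine (chrM:5089-5159), cysteine (chrM:5192-5257) and proline (chrM:15356-15422).
mt-Tn: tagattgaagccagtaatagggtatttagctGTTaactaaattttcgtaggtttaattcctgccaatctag
mt-Tc: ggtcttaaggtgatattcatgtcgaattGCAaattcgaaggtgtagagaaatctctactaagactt
mt-Tp: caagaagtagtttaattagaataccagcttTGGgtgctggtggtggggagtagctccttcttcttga
The last is the mature product of Mir6236, the tested gene with the lowest ratio of all. Counts were of reads over the annotated gene, so the mature product itself was not measured. It is given by RefSeq for GRCm38.p6 at chr9:110281353-110281371 on the plus strand, and capitals mark its seed, bases 2 to 8.
mmu-miR-6236: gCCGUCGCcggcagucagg

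Library totals were 22564460 counts on average in replicates 1-2 (range 19192722 to 27230202) and 18503496 in replicates 3-5 (range 16652992 to 22151196). The ranges overlapped, and no test is given because the totals are sums of the counts that set the libraries apart. Thinned to 16652992 counts each, the replicates 1-2 libraries still held 22447 to 24633 genes with a count, against 20996 to 21973 in replicates 3-5. The 100 most abundant genes of a library took 18.7% of counts on average in replicates 1-2 and 24.5% in replicates 3-5, and annotated non-coding genes took 0.996% to 1.79% in replicates 1-2 and 0.732% to 0.862% in replicates 3-5. Libraries of the first set also varied more among themselves. The common biological coefficient of variation within groups was 22.4% over the 8 libraries of replicates 1-2 and 8.78% over the 12 of replicates 3-5. WT LPS 1, WT LPS 4 and KO LPS 1 stood highest on a thalamus marker list (0.0242%, 0.0195% and 0.0235% of counts, against 0.0104% to 0.0170% in the other 17 libraries), and 2 of these are in replicates 1-2. The differences of Airn, Mirg, Foxp2, Otx2, Hba-a2 and mt-Atp8, and several list medians, moved by over 1.5 times without these 3 libraries. Those reported below are given both ways.

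**Figure D1:**
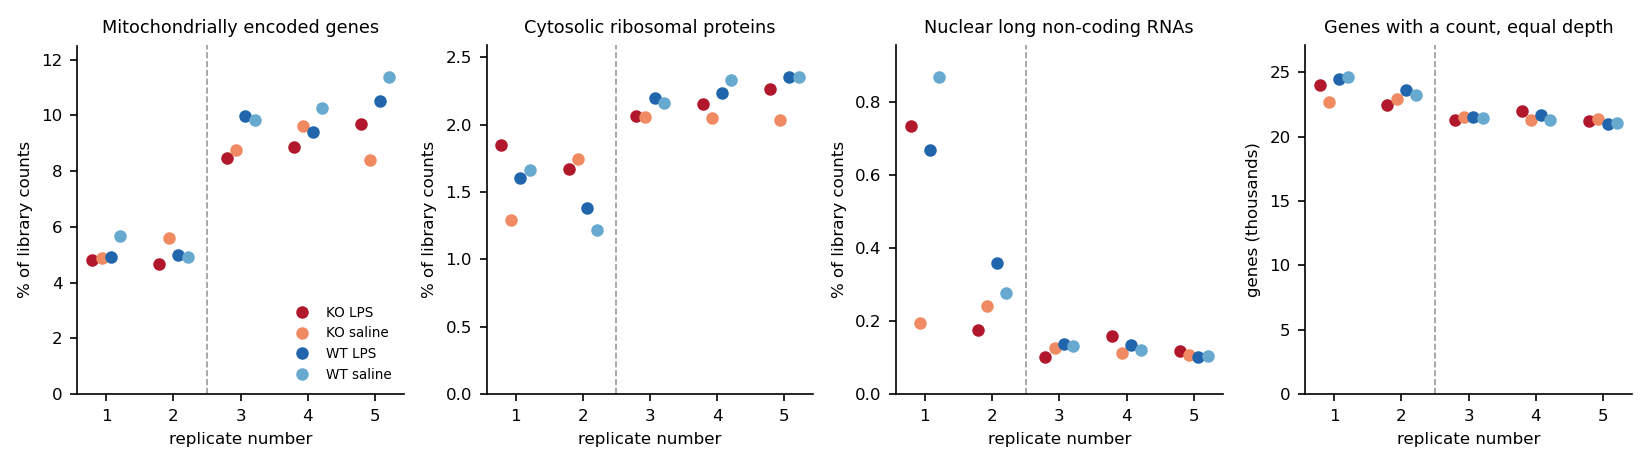
Share of counts in mitochondrially encoded genes, in cytosolic ribosomal protein genes and in listed nuclear long non-coding RNAs (percent), and genes with a count after thinning to equal depth, for each of 20 libraries by replicate number (1 to 5, x axis). Mitochondrial shares run from 4.66% to 5.68% in replicates 1-2 and from 8.41% to 11.4% in replicates 3-5, and in all 4 panels the sets do not overlap.

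Of 16419 genes tested, 3748 (22.8%) stood at least 0.5 higher on the log2 scale in replicates 1-2 and 1720 (10.5%) at least 0.5 lower. The median gene stood at 0.03. Scaling by total count alone moved that median to 0.30 and changed the split to 5921 higher and 381 lower genes, so that 94.0% of genes past the threshold were higher in place of 68.5%. It raised the medians of the 43 lists by 0.26 to 0.29 and that of all genes by 0.27, so that distances from the median of all genes moved little and a median lying below 0 by less than that turned positive. Levels did not overlap between the sets for 1792 genes that were higher (10.9%) and 1815 that were lower (11.1%). Of the 3748 higher genes, 3521 were above 0 in each of the 4 groups, and 1645 of the 1720 lower genes were below 0 in each. Genes on either side of the threshold were Gmeb1 (0.5001) and Kank1 (0.5, just under), and Irs4 (-0.5, just past) and Mfsd5 (-0.4999). With group means removed, the first principal component took 58.0% of the variance and the second 7.51%.

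**Figure D2:**
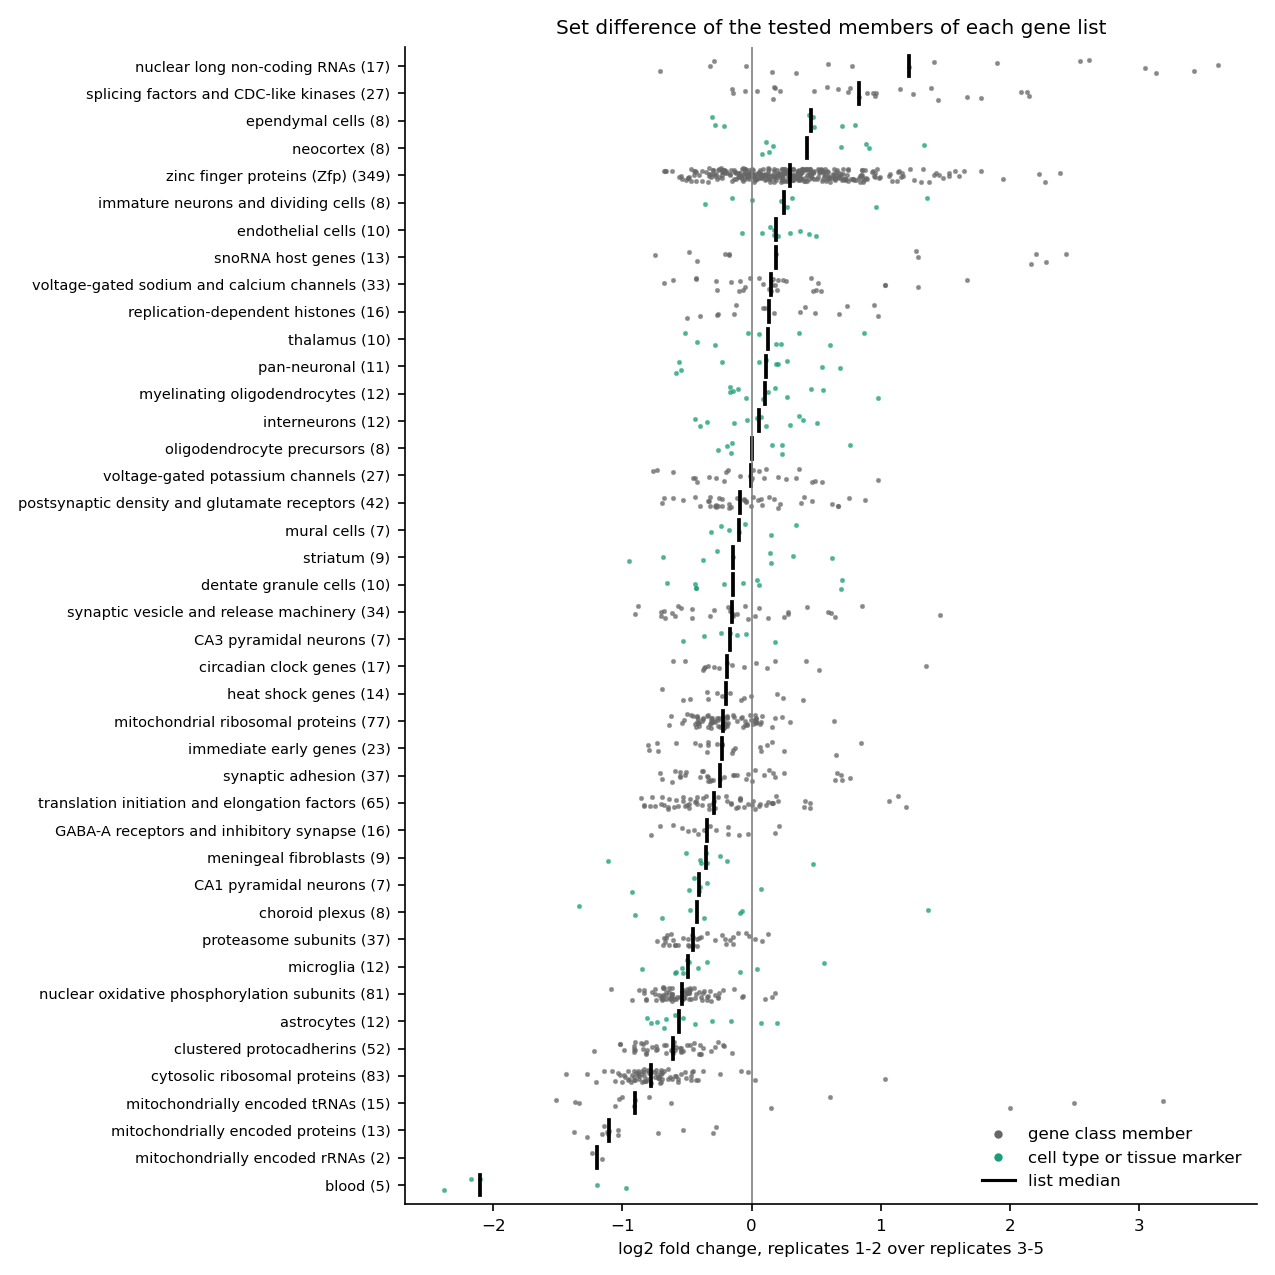
Log2 difference of replicates 1-2 over replicates 3-5 (x axis) for each tested member of the gene lists (rows, points), with the median of each list as a bar. Nuclear long non-coding RNAs (median 1.22) and splicing factors (median 0.83) lie to the right of 0, and mitochondrially encoded, ribosomal protein and respiratory-chain genes to the left.

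Nuclear long non-coding RNAs had the highest median of the lists after the filter on low counts. Without that filter their median was 1.21, below the 1.27 of hosts of small nucleolar RNAs. Of 17 listed and tested, 11 were at least 0.5 higher in replicates 1-2 and 1 was lower, against 22.8% and 10.5% of all genes. The median was 1.22, against 0.03 over all genes tested. Without overlap between the sets, 7 members lay higher, against 10.9% of all genes. The 17 took 0.174% to 0.867% of counts in replicates 1-2 and 0.102% to 0.160% in replicates 3-5. Without the 3 libraries high in thalamus markers the median was 0.81. Below, the level over the libraries of a set is given as lowest, median and highest.

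Neat1 (chr19:5824708-5845478, minus strand), the scaffold of paraspeckles, had 39.1, 67.6 and 129 CPM in replicates 1-2 and 3.11, 6.09 and 11.3 CPM in replicates 3-5, a log2 difference of 3.62 ± 0.25. Even the lowest library of replicates 1-2, KO LPS 2, lay above the highest of replicates 3-5, KO LPS 4. Firre (chrX:50555744-50635321, minus strand), an X-linked RNA that stays on chromatin, had 25.97, 55.2 and 113 CPM in replicates 1-2 and 3.00, 5.91 and 9.26 CPM in replicates 3-5 (3.43 ± 0.29), and the sets did not overlap. Miat (chr5:112213228-112229395, minus strand), a nuclear RNA of neurons, had 117, 288 and 623 CPM in replicates 1-2 and 21.6, 33.1 and 56.5 CPM in replicates 3-5 (3.05 ± 0.28), again without overlap. Its 3 highest libraries were KO LPS 1 at 411, WT LPS 1 at 436 and WT saline 1 at 623 CPM.

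Snhg11, a snoRNA host expressed in neurons, had 226, 490.3 and 1764 CPM in replicates 1-2 and 46.1, 74.03 and 176 CPM in replicates 3-5 (3.14 ± 0.40). Meg3, the maternally expressed RNA of the imprinted Dlk1 cluster, had 384, 1029.8 and 3626 CPM in replicates 1-2 and 121, 215 and 436 CPM in replicates 3-5 (2.61 ± 0.42), and here the sets overlapped. The same 3 libraries stood apart for both. Meg3 reached 2912 CPM in KO LPS 1, 2631 in WT LPS 1 and 3626 in WT saline 1, against 384 to 1209 CPM in the other 5 libraries of replicates 1-2, and KO saline 1 lay among those 5. The remaining higher members were Ftx, the Xist neighbour, at 2.54, Mirg at 1.90 (1.06 without the 3 libraries high in thalamus markers), Kcnq1ot1, the imprinted antisense RNA of Kcnq1, at 1.41, Airn at 1.22 (0.81 without those 3), Rian at 0.78 and Dleu2 at 0.59. Airn had 1 to 12 counts in replicates 3-5 and may have passed the filter on low counts only through replicates 1-2.

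Not every member went that way. Malat1, the RNA of nuclear speckles, had 149, 182 and 282 CPM in replicates 1-2 and 149.9, 179 and 225 CPM in replicates 3-5 (0.16 ± 0.11), and its sets overlapped. Peg13, a paternally expressed RNA, had 197, 234 and 264 CPM in replicates 1-2 and 355, 377 and 409 CPM in replicates 3-5 (-0.71 ± 0.06), lower in replicates 1-2 without overlap. Exons of Neat1, Miat, Snhg11, Meg3, Malat1, Kcnq1ot1, Rian, Ftx, Mirg and Dleu2 overlap another annotated gene, and the strand setting of the counting is not given, so their reads cannot be told from those of the partner.

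**Figure D3:**
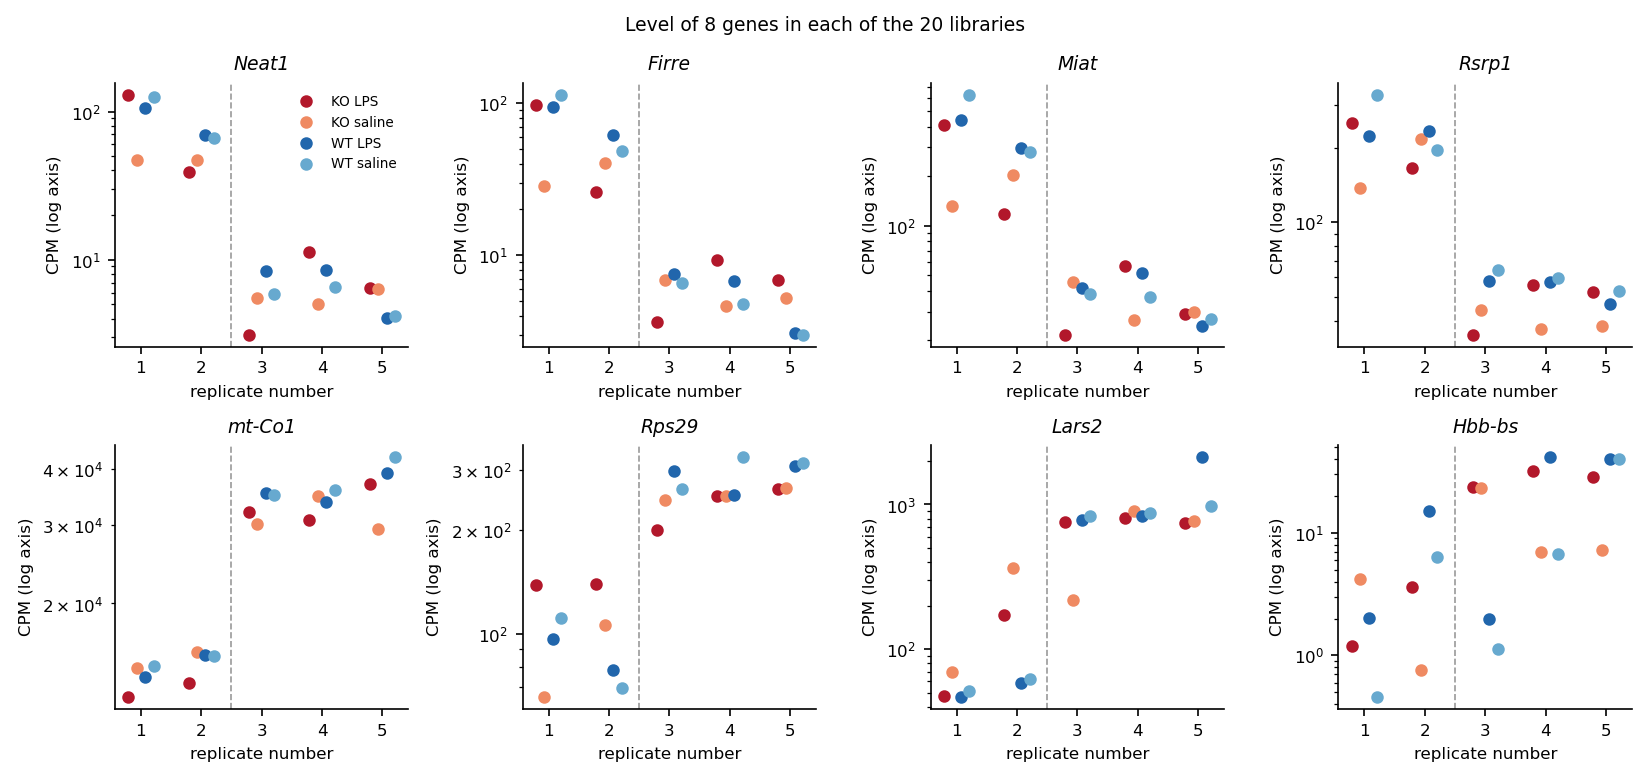
CPM per library (log axis) for Neat1, Firre, Miat, Rsrp1, mt-Co1, Rps29, Lars2 and Hbb-bs, by replicate number and group. The first 4 lie higher in every library of replicates 1-2 than in any of replicates 3-5, mt-Co1 and Rps29 lie lower in every one, and Lars2 and Hbb-bs overlap.

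Genes of the splicing machinery were next. Of 27 tested splicing factors and CDC-like kinases, 18 stood at least 0.5 higher in replicates 1-2 and none stood lower, against 22.8% and 10.5% of all genes. Without overlap, 17 members lay higher, against 10.9% of all genes, and the median was 0.83. Rsrp1, an arginine- and serine-rich protein, had 138, 220.2 and 328 CPM in replicates 1-2 and 35.1, 52.7 and 63.9 CPM in replicates 3-5 (2.13 ± 0.11). Clk1, a kinase that phosphorylates SR splicing factors, had 39.02, 67.7 and 116 CPM in replicates 1-2 and 12.7, 16.9 and 23.5 CPM in replicates 3-5 (2.09 ± 0.19). Every library of replicates 1-2 lay above every library of replicates 3-5 for both. Pnisr, another arginine- and serine-rich protein, stood at 2.15, Luc7l3, which associates with the U1 particle, at 1.77, and the lowest member, the SR protein Srsf3, at -0.15.

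Hosts of small nucleolar RNAs were split. Of 13 tested, 6 stood higher (Snhg20 at 2.44, Snhg17 at 2.28, Snhg15 at 2.20, Dancr at 2.17, Snhg5 at 1.29 and Snhg1 at 1.27) and Snhg8 stood lower at -0.75, with a median of 0.19. That median was 0.09 without WT saline 1 and 1.27 without a filter on low counts. Snhg15 had 3 to 17 counts in replicates 3-5 and may have passed that filter only through replicates 1-2. Zinc finger genes of the Zfp series, most of which encode DNA-binding repressors, had 106 of 349 higher and 8 lower and a median of 0.30. Over all genes, 22.8% stood at least 0.5 higher and 10.5% lower. Zfp692 stood at 2.39, Zfp950 at 2.27 and Zfp57, which guards imprints, at 2.23.

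Mitochondrially encoded protein genes lay on the other side. Of the 13, 11 stood at least 0.5 lower in replicates 1-2 and none stood higher, against 10.5% and 22.8% of all genes. Without overlap, 8 members lay lower, against 11.1% of all genes, and the median was -1.11. The 13 took 3.82% to 4.66% of counts in replicates 1-2 and 6.97% to 9.56% in replicates 3-5. mt-Co1, a catalytic subunit of cytochrome c oxidase, had 12331, 14428 and 15544 CPM in replicates 1-2 and 29316, 34851 and 42559 CPM in replicates 3-5 (-1.28 ± 0.07). mt-Nd5 of complex I stood at -1.37 ± 0.09 and mt-Cytb of complex III at -1.16. The 2 members inside the threshold were mt-Co2 with 35.8, 62.2 and 104 CPM in replicates 1-2 and 45.6, 67.3 and 197 CPM in replicates 3-5 (-0.28 ± 0.26) and mt-Atp6 at -0.30 ± 0.50. Both overlapped between the sets. mt-Atp8 lay just past the threshold at -0.53. It was -0.26 without the 3 libraries high in thalamus markers, -0.29 without WT LPS 1 or without WT LPS 5, and -1.20 without KO LPS 2. mt-Co3 had 19.2 to 46.3 CPM in replicates 1-2. In replicates 3-5 it had 367 CPM in WT saline 4, 343 in WT saline 5 and 141 in WT LPS 5, and 20.6 to 49.7 CPM in the other libraries. The ribosomal RNAs of the organelle, mt-Rnr1 at -1.16 and mt-Rnr2 at -1.24, did not overlap.

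The tRNAs printed above divided by strand. Of 22 mitochondrial tRNA genes 15 passed the filter on low counts. All 6 tested on the minus strand stood at least 0.5 lower in replicates 1-2, whereas of 9 on the plus strand 4 stood higher and 4 lower. Over all genes, 22.8% stood at least 0.5 higher and 10.5% lower. mt-Tl2 had 2.72, 5.58 and 7.52 CPM in replicates 1-2 and 0.0545, 0.622 and 1.07 CPM in replicates 3-5 (3.19 ± 0.22), mt-Th stood at 2.50 ± 0.38, and mt-Ts2 had 0.822, 1.18 and 1.37 CPM in replicates 1-2 and 0, 0.278 and 0.621 CPM in replicates 3-5 (2.0 ± 0.29). These 3 neighbours lie between mt-Nd4 and mt-Nd5, which code for complex I subunits and stood at -1.04 and -1.37. mt-Tr, the arginine tRNA, also stood higher at 0.61. Counts in replicates 3-5 were 0 to 13 for mt-Th, 0 to 11 for mt-Ts2 and 4 to 14 for mt-Tr. These genes may have passed the filter on low counts only through replicates 1-2. The number of higher members on the plus strand therefore depends on that filter, and the split by strand was not tested. On the minus strand mt-Tn had 11.9, 14.5 and 19.9 CPM in replicates 1-2 and 31.8, 42.6 and 52.4 CPM in replicates 3-5 (-1.51 ± 0.11), mt-Tp stood at -1.37 and mt-Tc at -1.34. Neighbouring mitochondrial genes overlap or abut, and nuclear copies of the genome exist, so counts of single genes here are uncertain.

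**Figure D4:**
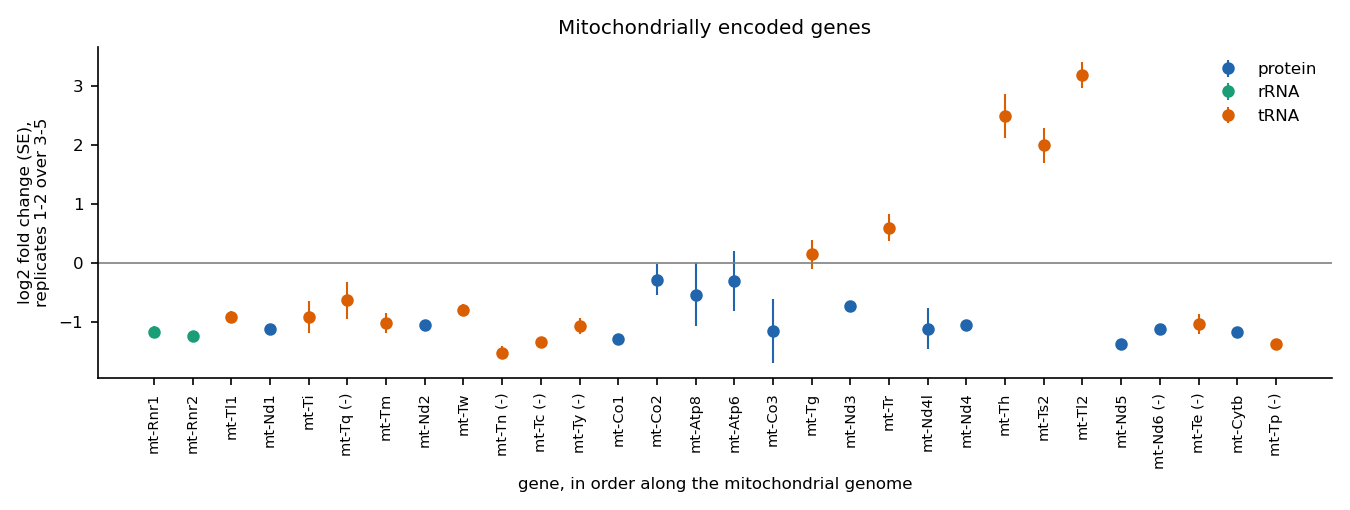
Log2 difference of replicates 1-2 over replicates 3-5 with its standard error (y axis) for the 30 tested mitochondrial genes in genome order (x axis). Both rRNAs and most proteins lie near -1, and mt-Tl2 (3.19), mt-Th (2.50) and mt-Ts2 (2.0) stand far above the rest.

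Messages for the cytosolic ribosome were lower in replicates 1-2. Of 83 tested ribosomal protein genes, 71 stood at least 0.5 lower and 72 lay lower without overlap, against 10.5% and 11.1% of all genes; the median was -0.78. Their share of counts was 1.22% to 1.85% in replicates 1-2 and 2.04% to 2.35% in replicates 3-5. Rps29, of the small subunit, had 65.4, 101 and 139.8 CPM in replicates 1-2 and 199.8, 264 and 326 CPM in replicates 3-5 (-1.44 ± 0.14), and no library overlapped. Rpl38, of the large subunit, stood at -1.27 and Rps28 at -1.21. The exception, singled out after its value was seen, was Rps10 at 1.04. Ribosomal protein genes have many processed pseudogenes, so reads may be split among copies.

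Nuclear genes of the respiratory chain followed with a median of -0.54, 46 of 81 lower and none higher. Atp5k, a small subunit of ATP synthase, stood at -1.09 and Atp5a1, another subunit of the same enzyme, at -0.92. Proteasome subunits had 13 of 37 lower and none higher (median -0.45), among them Psmb5, which carries the chymotrypsin-like activity, at -0.73. Translation factors had 19 of 65 lower and 3 higher (median -0.29). With total-count scaling the medians were -0.26 for the respiratory chain, -0.18 for the proteasome and -0.02 for translation factors. Mitochondrial ribosomal proteins differed less, with 5 of 77 lower and 1 higher, shares below the 10.5% and 22.8% of all genes. Their median of -0.22 turned positive when libraries were scaled by total count alone.

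Synaptic genes did not move as one class. Over all genes, 22.8% stood at least 0.5 higher and 10.5% at least 0.5 lower. Release-machinery genes had 10 of 34 lower and 5 higher, and their median of -0.15 turned to 0.11 with total-count scaling. Slc17a7, the vesicular glutamate transporter VGLUT1, had 1287, 1576 and 1752 CPM in replicates 1-2 and 2346, 2887 and 3256 CPM in replicates 3-5 (-0.90 ± 0.07), without overlap. Synpr, a synaptic vesicle membrane protein, stood at -0.88, Vamp2 at -0.70 and Syn1 at -0.70, whereas the priming factor Unc13b stood at 1.46, Erc2 at 0.85 and the scaffolds Rims1 and Rims2 at 0.59 and 0.61.

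The postsynaptic list had 5 of 42 higher and 4 lower, shares below the 22.8% and 10.5% of all genes. Its median was -0.09, and 0.18 with total-count scaling. Dlg4, the scaffold PSD-95, stood at -0.69 and Camk2a at -0.53, while the AMPA receptor genes Gria2 and Gria3 stood at 0.67 and 0.62 and the kainate receptor gene Grik3 at 0.88. Adhesion genes had 9 of 37 lower and 5 higher, with a median of -0.24 that was 0.03 with total-count scaling. Ptprd and Ptprs, receptor phosphatases that organise synapses, stood at 0.76 and 0.70, and Nlgn2, the neuroligin of inhibitory synapses, at -0.71. Of 16 genes of GABA receptors and the inhibitory synapse 4 were lower and none higher (median -0.34): Gabrg1 at -0.78, Nlgn2, Gabbr1 at -0.61 and Gabra4 at -0.54.

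Clustered protocadherins, which give neurons their surface identity, stood lower throughout, with 38 of 52 past the threshold, none higher and a median of -0.61. Only 10 members lay lower without overlap, and for replicate 1 over replicate 2 the list median was -0.41. Pcdhb2 was lowest at -1.22, with 0.640 to 4.24 CPM in replicates 1-2 and 3.67 to 6.52 CPM in replicates 3-5, which overlapped. Variable exons of the gamma cluster share constant exons, so counts of single members are uncertain. Sodium and calcium channel genes had 6 of 33 higher and 2 lower (median 0.15), shares below the 22.8% and 10.5% of all genes, with Scn9a at 1.67, Cacng2, the AMPA receptor partner stargazin, at 1.29 and Cacna1d at 1.03. Potassium channel genes centred on -0.00, with 2 of 27 higher, a share below that of all genes, and 3 lower, a share near it. Immediate early genes had 5 of 23 lower (Egr3 at -0.80, Egr4 at -0.79, Nr4a3, Fosb and Egr1) and 2 higher (Npas4 at 0.85 and Klf4), with a median of -0.23 whose sign turned under total-count scaling. The same held for heat shock genes (median -0.20, Hspa8 at -0.69, Bag3 at -0.53) and clock genes (median -0.19, Per3 at 1.35, Per2 at 0.52, Nr1d1 at -0.61, Hlf at -0.52). Without the 3 libraries high in thalamus markers the medians were -0.06 for immediate early genes, -0.05 for heat shock genes and -0.22 for the inhibitory synapse. That of potassium channel genes was then 0.02.

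Among cell-type markers, those of astrocytes and microglia stood lower in replicates 1-2. Over all genes, 10.5% stood at least 0.5 lower and 22.8% at least 0.5 higher. Astrocyte markers had 7 of 12 past the threshold and none higher, with a median of -0.56 that was -0.42 without the 3 libraries high in thalamus markers. Aqp4, the water channel of astrocyte endfeet, had 106, 149.7 and 172 CPM in replicates 1-2 and 199, 244 and 281 CPM in replicates 3-5 (-0.74 ± 0.06), without overlap. Mlc1 stood at -0.81 and the connexin Gja1 at -0.78, but Gfap, the intermediate filament, stood at -0.16 and S100b at 0.20. Microglial markers had 6 of 12 lower and 1 higher (median -0.49), with the purinergic receptor P2ry12 at -0.60, the complement component C1qa at -0.58 and the lectin Siglech at 0.56. With total-count scaling the medians were -0.30 for astrocytes and -0.22 for microglia.

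Most neuronal and oligodendrocyte lists had medians near that of all genes. Of all genes, 22.8% stood at least 0.5 higher and 10.5% at least 0.5 lower. Pan-neuronal genes had 2 of 11 higher (Nefh at 0.69, Rbfox3 at 0.54), a share below that of all genes. The 3 lower were Uchl1 at -0.58, Eno2 at -0.56 and Tubb3 at -0.55, a share above that of all genes, and the list median was 0.11. Medians were 0.06 for interneurons, 0.00 for oligodendrocyte precursors, 0.11 for myelinating oligodendrocytes and, with a sign that turned under total-count scaling, -0.14 for dentate granule cells and -0.17 for CA3 neurons. CA1 markers stood at -0.41, with Wfs1 at -0.92 the 1 member of 7 past the threshold, a share near that of all genes. Mobp, a myelin protein, stood at 0.98, while Mbp stood at 0.46. Endothelial markers had a median of 0.19 and mural markers one of -0.09, with a sign that turned under total-count scaling. Neocortical markers had a median of 0.43 with 4 of 8 higher (Foxp2 at 1.33, Rorb at 0.91, Tshz2 at 0.89, Cux2 at 0.69) and none lower. Foxp2 had 6.05 CPM in KO LPS 1 and 6.78 in WT LPS 1, against 0.480 to 1.34 CPM in the other 6 libraries of replicates 1-2; its difference was 0.81 without KO LPS 1 and 0.59 without the 3 libraries high in thalamus markers. Tshz2 had 30.9 CPM in WT LPS 2, without which its difference was 0.53. Thalamic markers had a median of 0.12, which was 0.02 without KO LPS 1 and 0.02 without those 3 libraries. Leaving out the 3 also moved the medians of CA1 markers to -0.23, of interneurons to 0.14, of oligodendrocyte precursors to 0.06, of myelinating oligodendrocytes to 0.22, of pan-neuronal genes to 0.21, of dentate granule cells to -0.07, of endothelial markers to 0.12 and of mural markers to -0.17.

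Markers of blood, choroid plexus and meninges can enter with the dissection. All 5 blood genes stood lower in replicates 1-2 with a median of -2.11, but each overlapped between the sets and their levels varied widely among libraries. Hbb-bs, an adult beta-globin, had 0.457, 2.80 and 15.2 CPM in replicates 1-2 and 1.12, 23.5 and 41.4 CPM in replicates 3-5 (-2.39 ± 0.70), and the highest library of replicates 1-2 was WT LPS 2. Hba-a2 had 0 to 0.0962 CPM in KO and 0.322 to 7.08 CPM in WT libraries of replicates 3-5, and its set difference of -0.97 turned to 0.50 in DESeq2. It was -0.36 without WT saline 5, -0.49 without WT LPS 1, -0.64 without WT LPS 4 and -0.34 without the 3 libraries high in thalamus markers. Globin genes are near-identical pairs, so their separate counts are uncertain. Choroid plexus markers had a median of -0.42, which was -0.74 without the 3 libraries high in thalamus markers. Of 8 tested, 3 were lower (Folr1, a folate receptor, at -1.34, Kl at -0.91, Clic6 at -0.69) and Otx2 was higher at 1.36. Over all genes, 10.5% stood at least 0.5 lower and 22.8% higher. Otx2 was at -0.52 without the 3 libraries high in thalamus markers, 0.48 without KO LPS 1 and 0.75 without WT LPS 1. Meningeal markers had a median of -0.35, with Igf2 at -1.11 and Lum at -0.51 past the threshold. Their median was -0.61 in KO and -0.0039 in WT libraries, -0.60 without WT LPS 1, -0.22 without KO saline 2 and -0.54 without the 3 libraries high in thalamus markers.

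Among single genes outside the lists, the highest ratios belonged to genes of unrelated function. Ovgp1, an oviduct glycoprotein, had 0.651, 1.66 and 7.97 CPM in replicates 1-2 and 0.166, 0.216 and 0.306 CPM in replicates 3-5 (3.94 ± 0.47). In KO LPS 1, WT LPS 1 and WT saline 1 it reached 7.82, 7.97 and 7.81 CPM, against 0.651 to 1.99 CPM in the other 5 libraries of replicates 1-2. Trank1 (chr9:111311739-111395775), an ankyrin- and tetratricopeptide-repeat protein, had 136, 308 and 623 CPM in replicates 1-2 and 23.5, 38.8 and 53.4 CPM in replicates 3-5 (3.13 ± 0.25), without overlap. The amylase gene Amy1 stood at 3.44, the deoxyribonuclease gene Dnase1l2 at 3.09 and the lectin gene Clec2d at 3.04. Amy1 and Dnase1l2 were also highest in KO LPS 1, WT LPS 1 and WT saline 1. Dnase1l2 had 6.11 to 7.86 CPM there, against 0.434 to 1.58 CPM in the other 5, which overlapped the 0.0639 to 0.734 CPM of replicates 3-5. Exons of Amy1 and Ovgp1 overlap another annotated gene. Counts in replicates 3-5 were 3 to 5 for Ovgp1, 1 to 13 for Dnase1l2 and 2 to 14 for Clec2d. Those genes may have passed the filter on low counts only through replicates 1-2, and their ratios rest on few counts.

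At the other end stood Mir6236, whose mature sequence is printed above, with 0.0725, 0.169 and 0.937 CPM in replicates 1-2 and 1.15, 3.94 and 7.57 CPM in replicates 3-5 (-3.87 ± 0.40), without overlap. Lars2 (chr9:123366927-123462666, plus strand), the mitochondrial leucyl-tRNA synthetase, had 46.7, 60.6 and 364 CPM in replicates 1-2 and 218, 818 and 2119.8 CPM in replicates 3-5 (-3.13 ± 0.51). KO saline 2 was the highest library of replicates 1-2 for both, and for Lars2 it lay inside the range of replicates 3-5. In replicates 3-5 both genes were lowest in KO saline 3 and highest in WT LPS 5. Rn7sk, the 7SK RNA that restrains the elongation factor P-TEFb, had 0.0922, 0.322 and 0.925 CPM in replicates 1-2 and 1.07, 1.34 and 29.03 CPM in replicates 3-5 (-2.73 ± 0.67); 7SK has many near-identical copies, so its count is uncertain. In replicates 1-2 Mir6236 had 2 to 22 counts and Rn7sk 2 to 27. Both may have passed the filter on low counts only through replicates 3-5. Nkain3 stood at -1.47. Amd2, a near-identical copy of the adenosylmethionine decarboxylase gene, stood at -2.01, but in replicates 3-5 it split by genotype, with 7.21 to 15.3 CPM in KO and 0.709 to 1.87 CPM in WT libraries.

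The annotation of a gene moved with its set difference. Of 31 tested sense-intronic genes 71.0% stood at least 0.5 higher in replicates 1-2, as did 68.2% of 280 TEC genes, a class of the annotation for transcripts still to be tested by experiment, 52.5% of 474 antisense genes and 49.2% of 541 lincRNAs, against 18.9% of 14339 protein-coding genes. Of 227 processed pseudogenes 22.0% stood higher and 20.3% lower, with a median of -0.12. Of 255 genes whose exons lie in an intron of a protein-coding gene on the same strand 45.1% stood higher, as did 32.6% of 325 such genes on the opposite strand and 22.3% of the other 15839. Among protein-coding genes, those with 1 merged exon block had 10.6% higher and 21.3% lower (median -0.22), and those with more than 20 had 33.2% higher and 4.67% lower (median 0.25). Medians ran from -0.28 for exonic lengths up to 1 kb to 0.16 above 8 kb. By the span of the gene, introns included, medians were -0.12 up to 10 kb, -0.01 from 10 to 30 kb, 0.05 from 30 to 100 kb, 0.07 from 100 to 300 kb and -0.00 above 300 kb. Level moved with these properties too, with a median of 0.33 for genes up to 1 CPM and of -0.41 above 256 CPM. Within a band of level the order by exon number stayed: from 4 to 16 CPM the median was -0.08 with up to 5 blocks, 0.16 with 6 to 20 and 0.46 above 20, and above 64 CPM it was -0.43, -0.27 and -0.02. Across 6 bins of exonic GC content the medians lay between -0.08 and 0.02. Genes with an annotated retained-intron transcript had a median of 0.04 and those without one of -0.09. Genes are not independent replicates, and these are descriptions across genes.

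**Figure D5:**
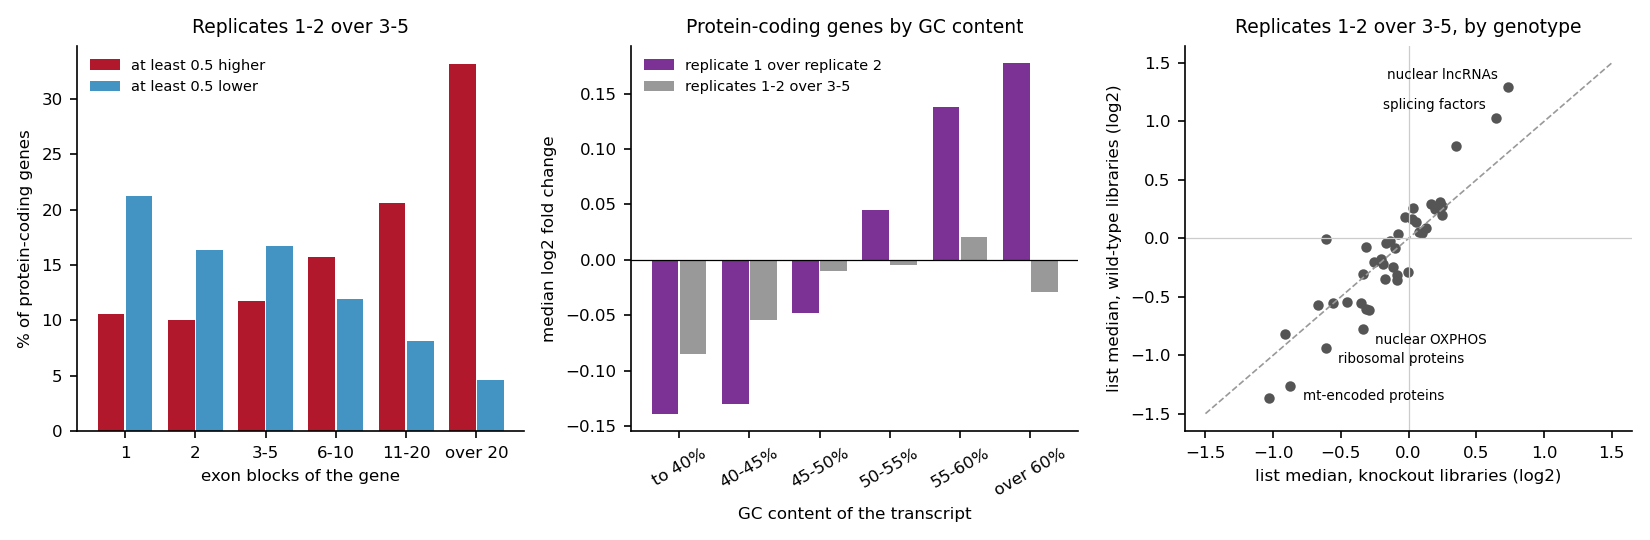
Left, share of protein-coding genes (percent) at least 0.5 higher (red) or lower (blue) in replicates 1-2 by the number of merged exon blocks; middle, median log2 difference by exonic GC content for replicate 1 over replicate 2 (purple) and for replicates 1-2 over replicates 3-5 (grey). Right, list medians of the set difference in KO (x axis) against WT (y axis), 1 point per list. The share of higher genes is 10.6% at 1 block and 33.2% above 20, replicate 1 over 2 runs with GC from -0.14 to 0.18, and 25 of 41 lists lie closer to 0 in KO.

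Within replicates 1-2, libraries numbered 1 and 2 were compared with each other over the 4 groups. In the fit of all 20 libraries 1150 genes (7% of those tested) were higher in replicate 1 and 776 (4.73%) lower by edgeR's quasi-likelihood test with Benjamini-Hochberg adjustment. Wdfy1, an endosomal adaptor, was higher in replicate 1 by 0.95 ± 0.12 (edgeR adjusted p = 0.00199), Ovgp1 by 2.18 ± 0.34 and Grin2d, an NMDA receptor subunit, by 1.01 ± 0.15 (0.00951 for both Ovgp1 and Grin2d). Exons of Wdfy1, Ovgp1 and Grin2d overlap another annotated gene. Of the lists, nuclear long non-coding RNAs had 4 of 17 higher, splicing factors 8 of 27 higher, and heat shock genes 7 of 14 lower.

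This count depended on single libraries and on how the spread was estimated. It was 1 without KO LPS 1, 2 without WT LPS 1, 2 without WT saline 1, 13 without KO LPS 2, 692 without WT saline 2, 1132 without WT LPS 2 and 5368 without KO saline 1. With the 8 libraries of the set alone in the fit, 1 gene passed. Without the 3 libraries high in thalamus markers, 0 genes passed in edgeR. The adjusted p of Wdfy1 ran from 1.39e-09 to 0.114 over the alternatives. Among replicates 3, 4 and 5, edgeR called 0 genes (0% of those tested), 333 had an unadjusted p under 0.05 and DESeq2 called 1.

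How the set difference varied among groups was tested gene by gene. Over the 4 groups together edgeR called 0 genes (0%), with 1340 at an unadjusted p under 0.05 and 167 in DESeq2, and the smallest adjusted p was 0.171. For LPS against saline it called 0 (0%), with 592 at an unadjusted p under 0.05 and 0 in DESeq2. For KO against WT it called 20 genes, 12 (0.0731%) with a set difference more positive in KO and 8 (0.0487%) more negative. Among genes past the threshold, 80.8% had a larger absolute set difference in WT than in KO, and 25 of 41 lists had a median closer to 0 in KO. The share of 80.8% was not taken over all genes or with single libraries left out. Whether it reflects genotype or a few libraries was not tested.

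Nxt1, a cofactor of messenger RNA export, differed most (1.19 ± 0.17, KO minus WT, edgeR adjusted p = 0.0347). It had 6.67 to 8.81 CPM in KO and 6.04 to 6.95 CPM in WT libraries of replicates 1-2, and 6.33 to 9.33 CPM in KO and 10.98 to 17.1 CPM in WT libraries of replicates 3-5. Only the WT libraries of replicates 3-5 stood apart. Aph1c, a subunit of gamma-secretase, had 12.5 to 17.9 CPM in KO and 7.63 to 8.26 CPM in WT libraries of replicates 1-2, against 6.71 to 8.45 CPM in KO and 7.14 to 8.40 CPM in WT libraries of replicates 3-5 (0.97 ± 0.16, adjusted p = 0.0351). For this gene the KO libraries of replicates 1-2 stood apart, and its exons overlap another annotated gene. Rbm43, an RNA-binding protein, had 11.2 to 14.5 CPM in KO and 10.1 to 13.9 CPM in WT libraries of replicates 1-2, against 18.03 to 28.3 CPM in KO and 10.7 to 12.8 CPM in WT libraries of replicates 3-5 (-0.95 ± 0.16, adjusted p = 0.0351). Here it was the KO libraries of replicates 3-5 that stood apart.

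Mmadhc, of cobalamin metabolism, differed by 0.65 ± 0.11 and Mrpl57, of the mitochondrial ribosome, by 0.54 ± 0.09 (edgeR adjusted p = 0.0351 each). Of 81 respiratory-chain genes 4, all of complex I, were among the 20: Ndufb6 at 0.62, Ndufa13 at 0.61, Ndufa12 at 0.58 and Ndufb11 at 0.58. Their list median of the set difference was -0.34 in KO and -0.78 in WT, beside -0.61 and -0.94 for ribosomal proteins, 0.74 and 1.29 for nuclear long non-coding RNAs, and 0.65 and 1.03 for splicing factors. The count of 20 was not stable: 19 of the 20 libraries moved it by more than 1.5 times when left out. It became 1500 without KO LPS 1, 235 without WT saline 1, 136 without KO saline 1, 59 without WT LPS 1, 13 without KO saline 4, 11 without KO LPS 5, 9 without WT saline 2, 5 without KO LPS 2, 2 without WT LPS 3, and 0 without any 1 of WT saline 3, WT saline 4, WT saline 5, WT LPS 2, WT LPS 4, WT LPS 5, KO saline 2, KO saline 3, KO saline 5 and KO LPS 3. It was 0 with weights that let each set keep its own spread, 92 with the replicate number as a block and 765 without the 3 libraries high in thalamus markers. Adjusted p of the 5 genes named first ran up to 0.222.

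The effects of genotype and LPS were read with the set as a term and within each set. With the term, 83 genes (0.506%) were higher and 69 (0.42%) lower in KO than in WT, 152 in all, against 72 without the term; without KO LPS 1 the count was 264. Within replicates 1-2, 54 (0.329%) were higher and 36 (0.219%) lower in KO, and within replicates 3-5 96 (0.585%) were higher and 57 (0.347%) lower. These counts compare separate libraries but share 1 estimate of each gene's spread over all 20. With only a set's own libraries in the fit, 10 genes passed in replicates 1-2, 8 of them among the 90, and 1257 in replicates 3-5, 149 of them among the 153. In the fit of all libraries the sets shared 39 genes, 43.3% of the 90 in replicates 1-2 and 25.5% of the 153 in replicates 3-5, and all 39 had the same sign. Fkbp5 had a KO over WT difference of -1.07 ± 0.12 in replicates 1-2 (edgeR adjusted p = 7.03e-05) and of -1.13 ± 0.10 in replicates 3-5 (adjusted p = 2.82e-06). With only the libraries of that set in the edgeR fit its adjusted p was 0.127 in replicates 1-2 and 2.98e-08 in replicates 3-5. AC165951.1, an antisense gene at chr17:30920338-30963220 whose exons overlap another gene, had 30.3 to 36.4 CPM in KO and 0.0394 to 0.0914 CPM in WT libraries of replicates 1-2, and 24.4 to 31.2 CPM in KO and 0 to 0.178 CPM in WT libraries of replicates 3-5. It passed the test in both sets. The within-set counts moved by more than 1.5 times without single libraries. That of replicates 1-2 became 2306 without KO LPS 1, 154 without WT LPS 1, 44 without KO saline 2, 42 without KO LPS 2, 35 without KO saline 1 and 35 without WT LPS 2. That of replicates 3-5 became 88 without WT saline 3, 74 without WT saline 4, 82 without WT saline 5, 90 without WT LPS 4, 71 without WT LPS 5, 87 without KO saline 3, 81 without KO saline 5, 231 without KO LPS 1 and 82 without KO LPS 3.

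For LPS against saline, 24 genes (0.146%) were higher with the set as a term and 0 lower, and 7 were called without the term. The count of 24 was 14 without KO saline 1, and 15 without WT saline 2, without WT saline 4 or without WT LPS 1. Within replicates 1-2, 11 genes (0.067%) were higher, and within replicates 3-5 1 gene (0.00609%), Saa3, which was also among the 11. The first count was 1 without KO saline 1, 2 without WT saline 2, 3 without KO saline 2, 4 without WT LPS 1, 5 without WT saline 3 or without KO saline 4, 6 without WT saline 1, 7 without WT LPS 3, WT LPS 4 or WT LPS 5, and 1242 without KO LPS 2. The second was 0 without any 1 of WT LPS 1, WT LPS 2, WT LPS 3, WT LPS 4 or the saline and KO LPS libraries of replicates 3-5, and 2 without KO LPS 1 or KO LPS 2. Saa3, an acute-phase apolipoprotein, had no count in any of the 10 saline libraries, where 3 counts would be up to 0.138 CPM in replicates 1-2 and 0.192 CPM in replicates 3-5. In LPS libraries it had 1.89 to 3.33 CPM in replicates 1-2 and 0.196 to 1.07 CPM in replicates 3-5, and it passed in both sets (edgeR adjusted p = 0.00161 in replicates 1-2 and 0.0322 in replicates 3-5). With only that set's libraries in the edgeR fit, its adjusted p was 0.228 in replicates 1-2, where 0 genes passed and 457 had an unadjusted p under 0.05, and 0.00794 in replicates 3-5, where 5 did. A filter of at least 1 CPM in 8 libraries removed Saa3 and left 0 genes called in replicates 3-5. Its difference in the LPS effect between the sets did not pass the test. Lag3, an inhibitory immune receptor also expressed by microglia, had 8.66 to 20.1 CPM in LPS and 5.35 to 7.71 CPM in saline libraries of replicates 1-2, and 9.72 to 16.1 CPM in LPS and 5.45 to 7.30 CPM in saline libraries of replicates 3-5. It rose by 1.15 ± 0.20 in replicates 1-2 (edgeR adjusted p = 0.0325), and in replicates 3-5 the estimate was 1.04 ± 0.16 (adjusted p = 0.0529). With only that set's libraries in the fit, the adjusted p of Lag3 was 0.974 in replicates 1-2 and 2.06e-05 in replicates 3-5. Over both sets it rose by 1.08 ± 0.12 (adjusted p = 7.37e-05).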

How the data were processed

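RNA was extracted with an RNeasy Plus Mini kit and libraries were made with NEBNext Ultra reagents, per the labels' protocols. Trimmomatic 0.38, FastQC, MultiQC, featureCounts 1.6.0 and mm10 are named, per the submitters' processing notes; the aligner, annotation release, strand setting, handling of multi-mapped reads and whether poly(A) RNA was selected are not given in the sources used here. The deposited values are raw counts of reads per gene in 1 table made by the authors, with 55536 Ensembl gene IDs, 33626 of them with a count; 0 sample columns lacked a sample. Symbols, biotypes, exons and tRNA sequences came from GENCODE M21 (GRCm38), which matched 100% of IDs; the miRNA sequence is RefSeq's for GRCm38.p6.

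Counts were filtered with filterByExpr by group (16419 genes kept), scaled by TMM and fitted with edgeR 4.0.16's quasi-likelihood model in R 4.3.3. The set difference came from a model with group and set; its variation among groups and effects within sets from 8 means of group and set; replicate numbers from group and number; LPS and KO effects from genotype, treatment and set. A log2 difference of 0.5 (no test) or a p below 0.05 after adjustment across the 16419 genes (Benjamini-Hochberg) was the threshold. The exact permutation test laid down for library totals is not reported, since the totals are sums of the counts that set the libraries apart. Alternatives used DESeq2 1.42.0, limma 3.58.1 (voom) and other filters, scalings and library subsets. The fitting steps were tested on simulated data. No interval is given for single libraries.

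The sets, gene lists and their members were chosen with earlier results of these data known. Named genes are the 3 members of each list with the widest set difference at a mean of at least 1 CPM, the 10 highest and 10 lowest genes without predicted or clone-named ones, the 5 smallest p of each test, and Fkbp5, Lag3, Saa3 and Malat1. Other members named beside small counts were picked after their values were seen. Some genes that fall under this rule are not reported here.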

Additional observations from a re-analysis of the deposited data

Results flagged for a closer look

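The check covered 97 groups of 5 or 8 libraries: library measures by group and within replicates 1-2, and genes within replicates 1-2. Of these, 8 had 1 library farther from the rest than Dixon's 95% critical value allows, and chance flags about 1 in 20 groups. The 12 libraries of replicates 3-5 were too many for this check, so it could find genes that stand apart in replicates 1-2 alone. All 8 concern the highest library there. KO saline 2 was that library for Lars2 (363.9 CPM) and Mir6236 (0.937 CPM). WT LPS 2 was it for the globin genes Hbb-bs (15.2 CPM), Hba-a1 (15.6 CPM) and Hbb-bt (3.12 CPM) and for the kainate receptor gene Grik3 (67.9 CPM). KO LPS 2 was it for Amd2 (5.45 CPM) and KO LPS 1 for the sodium channel gene Scn9a (6.05 CPM).

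A second kind of result drew attention because the set difference itself differed between KO and WT in an edgeR test of that difference. There were 20 such genes. Of the 5 with the smallest p, the KO minus WT difference was 1.19 for Nxt1, 0.97 for Aph1c, 0.65 for Mmadhc, 0.54 for Mrpl57 and -0.95 for Rbm43, on the log2 scale. Over 29 settings, counting the first fit, Nxt1 missed the threshold in 11, Mmadhc in 12, Aph1c and Rbm43 in 13 and Mrpl57 in 14.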

How the results depend on the processing

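Of set differences at least 0.5 from 0, those that turned were the median of short structural RNAs, 0.86 without a filter on low counts (-2.73 from 1 gene in the filtered fit), Otx2, -0.52 without the 3 libraries high in thalamus markers, and Hba-a2, 0.50 in DESeq2. The cause was not tested, except that the unfiltered median covers more genes. Of 44 medians, 12 changed sign with total-count scaling, which raised every list's median by 0.26 to 0.29. The medians of voltage-gated potassium channels and oligodendrocyte precursors, both near 0, changed sign under several other alternatives. Without WT LPS replicate 2 the median of myelinating oligodendrocytes was -0.0052, against 0.11, and that of interneurons was -0.0035, against 0.06. Counts of higher and lower genes were 5921 and 381 with total-count scaling and 13134 and 5057 without a filter, and 3619 to 4053 and 1637 to 2016 with each library left out.

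Counts from tests moved more. Without a filter on low counts they were 747 for set by group, 99 for set by LPS, 693 for set by genotype, 506 and 62 for the LPS effect in replicates 1-2 and in replicates 3-5, 794 and 607 for the KO effect in replicates 1-2 and in replicates 3-5, 3107 for replicate 1 against 2, 102 for replicates 3, 4 and 5, 251 for LPS and 550 for KO. With at least 1 CPM in 8 libraries the LPS count in replicates 3-5 was 0. DESeq2 gave 167 for set by group, 487 for set by genotype, 27 and 4 for LPS in replicates 1-2 and 3-5, 337 and 344 for KO, 1 for replicates 3, 4 and 5, 45 for LPS and 266 for KO over both sets. DESeq2's size factors in edgeR gave 2 for LPS in replicates 3-5, and limma-voom gave 7 for LPS in replicates 1-2. Without the 3 libraries high in thalamus markers, counts were 28 for set by group, 765 for set by genotype, 6 and 2 for LPS in replicates 1-2 and 3-5, 1113 for KO in replicates 1-2, 0 for replicate 1 against 2 and 12 for LPS over both sets.

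With no term for the set, 7 genes were called for LPS and 72 for KO, against 24 and 152. With only that set's libraries in the fit, LPS gave 0 in replicates 1-2 (limma-voom on all libraries gave 7 and 1290 genes had an unadjusted p under 0.05 in the edgeR fit of all libraries) and 5 in replicates 3-5, and KO gave 10 and 1257, against 11, 1, 90 and 153. Chosen after seeing the data were that fit for replicate 1 against 2, which gave 1 gene against 1926, and voom weights by set, which gave 0 against 20 for set by genotype and 1 against 1926 for replicate 1 against 2. Leaving out 1 library at a time gave 0 to 43 for set by group, 0 to 1500 for set by genotype, 1 to 1242 and 0 to 2 for LPS in replicates 1-2 and 3-5, 35 to 2306 and 71 to 231 for KO in them, 1 to 5368 for replicate 1 against 2, 14 to 32 for LPS and 115 to 264 for KO.

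A replicate block could be fitted only beside contrasts that cross the numbers, since numbers are nested in the sets; none was possible for the set difference or the tests of replicate numbers. With the block, set by group and set by LPS gave 0, set by genotype gave 92, LPS 27 over both sets, 9 in replicates 1-2 and 2 in replicates 3-5, and KO 176, 144 and 242. Pairing was not established: with group and set means removed, same-numbered libraries correlated from -0.26 to 0.611 in replicates 1-2 and from -0.107 to 0.142 in replicates 3-5, and 9 of 20 libraries correlated best with their own number.

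Thinned to equal totals, 3636 genes stood higher and 1726 lower. Without the 3 libraries high in thalamus markers 3590 and 1623 did. The wider spread within replicates 1-2 limits every test that uses those libraries, and genes of few counts add counting error to it.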

Other observations

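The ratio of replicate 1 over replicate 2 ran along exonic GC content. Its median over protein-coding genes was -0.14 on the log2 scale for exonic GC up to 40% and 0.18 above 60%, while the set difference stayed between -0.08 and 0.02 over the same bins. Its listed classes also differed in part from those of the set difference. Heat shock genes had a median of -0.41 for replicate 1 over 2, with 7 of 14 lower by edgeR's quasi-likelihood test, and 3 of 8 choroid plexus markers, Otx2 among them, and 3 of 9 meningeal markers were higher, against 7% of all genes. Otx2 had 13.1 CPM in KO LPS 1 and 15.1 CPM in WT LPS 1, both high in thalamus markers, against 0.17 to 1.09 CPM in the other 6 libraries of replicates 1-2. These counts carry the same dependence on single libraries as the total of 1926 genes, which was 1 with only the 8 libraries of replicates 1-2 in the fit.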
